A study of Mus musculus with 6 samples.

Results

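Haploid round spermatids, the product of meiosis, were set against pachytene spermatocytes of mid meiotic prophase on 6 Affymetrix MoGene 1.0 ST arrays. Samples were chosen by title: 2 round spermatid arrays, 1 wild type (WT) and 1 Rnf8 knockout (KO), and 4 pachytene arrays, 2 WT and 2 KO, which are all 6 arrays of the series given here. All mice had the C57BL/6 background, and the knockout lacks Rnf8, a ubiquitin ligase that acts at DNA breaks and on the sex chromosomes in meiosis. Cells of each fraction came from 3 to 4 males and were separated by sedimentation through albumin, with a stated enrichment above 95%. The sources used here state no age for the mice. Genes were taken from transcript clusters with a single gene symbol, 1 cluster per gene, with a log2 intensity of 6 or more on at least 1 array: 17925 genes of the 19938 named. Levels are log2 of the deposited intensity, and a difference of 1 is a 2-fold change.

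Spermatogenesis passes from meiosis into spermiogenesis, in which the haploid cell builds an acrosome and a flagellum and replaces its histones with transition proteins and then protamines. Many proteins of the late stages are made from transcripts that were stored earlier, because the condensing nucleus falls silent. In pachytene spermatocytes the X and Y chromosomes are enclosed in the sex body and largely silenced, and part of their genes come back on in round spermatids.

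The sums of round spermatid and pachytene markers followed the labels, with other cells present. The marker lists were chosen with earlier results of these data known, so they are not an independent check. The summed linear intensity of 22 round spermatid markers was 42884 to 53319 on the pachytene arrays and 93100 and 90606 on the WT and KO spermatid arrays, and 18 of the 22 markers rose with none falling. The sum of 20 pachytene markers was 100779 to 108283 against 83984 and 83566, with 8 of the 20 falling, 1 (Pgk2) rising and 11 not passing. That of 19 elongating spermatid markers was 76864 to 97474 against 126400 and 119052, with 13 rising and none falling. Spermatid transcripts were thus present at high levels on the pachytene arrays. The sum of 11 Leydig cell markers was 7036 to 9823 on the pachytene arrays and 2374 and 2739 on the spermatid arrays, and 9 of the 11 fell. That of 26 Sertoli cell markers was 14795 to 18273 against 10724 and 12482, with 11 falling and 2 rising. The sum of 19 peritubular and vessel markers ran the other way, from 3969 to 4722 against 5708 and 6878, with 5 rising. Much of that rise in the sum is the matrix gene Dcn alone, at log2 7.59 to 8.30 against 10.60 and 11.03. Most of the 19 did not pass, so the sum does not speak for these cells as a class. That of 15 macrophage and blood markers was 2151 to 2346 against 2640 and 2586, with 3 rising. No marker can be read as absent on an array. The part of these cells in the differences below was not tested. In bulk samples like these, fewer cells of a type and less RNA per cell cannot be told apart.

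In a principal component analysis the leading axis (77.7% of the variance) parted the cell types, and the next axis (12.6%) set the second KO pachytene array apart from the others (-26.9, against 2.5 to 16.2 on the other pachytene arrays), with the KO spermatid array on the same side at -13.5 and the WT spermatid array at 8.9. The first KO pachytene array lay nearest to the spermatids on the leading axis, at -19.4, and the second lay farthest, at -33.1. The single cluster of Rnf8 also lists a readthrough gene, so it was not among the tested genes. It read 8.51 and 8.86 on the WT and 7.86 and 8.05 on the KO pachytene arrays, and 7.78 and 7.50 on the WT and KO spermatid arrays. Median intensity was 197.3 to 217.7 per array. Whether the arrays within a group are separate cell preparations is not stated, so the p-values measure the spread between these arrays, which may be technical.

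In a limma fit of genotype and cell type, 6255 of 17925 genes (34.9%) passed an adjusted p of 0.05. Of these, 3191 (17.8%) were higher and 3064 (17.1%) lower in round spermatids, and these percentages are the background for every gene list below. A 2-fold difference was passed by 1288 genes upward (7.19%) and 750 downward (4.18%), and a 4-fold difference by 31 and 59. The called rises had a median size of 0.85 and the called falls of -0.69, while the median over all genes was -0.06. Both spermatid arrays lay above all 4 pachytene arrays for 24.1% of the genes and below them for 26.4%, and 6175 of the 6255 called genes had groups that did not overlap. No gene passed an adjusted p of 0.05 in limma for a cell type difference that depended on genotype, and 130 had an unadjusted p under 0.05.

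The counts rest on few arrays. Without the KO spermatid array 3577 genes passed, without the WT spermatid array 2785, and 2547 of the original calls kept their direction in both of these fits. Without the first KO pachytene array 8849 passed, with 3803 higher and 5046 lower. For each gene list the counts without the KO and without the WT spermatid array are therefore given in that order after the main count. Calls were also more frequent at higher levels: in 4 equal sets of genes ordered by mean level, 11.1%, 24.4%, 54.3% and 49.8% were called from the lowest set up. The background shares used for the gene lists were not adjusted for level.

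**Figure D1:**
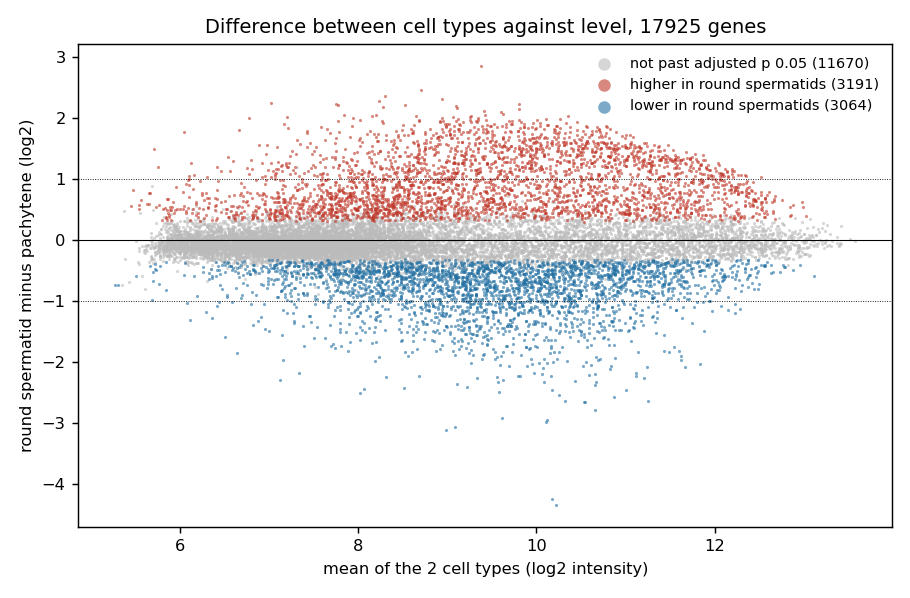
Each point is 1 of 17925 genes, with the mean log2 intensity of the 2 cell types on the horizontal axis and the log2 difference, round spermatid minus pachytene, on the vertical axis. The 3191 genes higher in spermatids are red, the 3064 lower genes blue and the others grey, and dotted lines mark 2-fold. The falls reach further, to -4.24, than the rises, which reach 2.86.

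The largest rise was that of a connective tissue gene. Decorin (Dcn), a matrix proteoglycan and a listed peritubular marker, read 7.59, 8.30, 7.81 and 8.12 on the WT and KO pachytene arrays and 10.60 and 11.03 on the spermatid arrays, a difference of 2.86 (SE 0.21, adjusted p 0.000146 in limma). Both spermatid arrays stood more than 2 log2 units above every pachytene array. Another peritubular marker, the growth factor gene Igf1, rose by 1.24, and the macrophage marker C1qb, a complement gene, by 1.00. Most markers of both lists did not pass, among them Acta2 (0.10), Col1a1 (-0.08), C1qa (0.07) and Csf1r (0.13). Samt2b, an X-linked testis gene, rose by 2.47, and the granzyme gene Gzmn by 2.31. Cst13, a cystatin expressed in testis, read 7.92 to 9.46 on the pachytene arrays and 10.99 and 10.76 in spermatids, a rise of 2.15 (SE 0.37).

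Further large rises include several secreted or membrane proteins. Lipf, a lipase gene, rose by 2.12, Lrrc74a by 2.04, the serine carboxypeptidase Cpvl by 2.01, the membrane glycoprotein Cd109 by 1.98, the scaffold protein gene Pdzk1 by 1.98 and the cytokine-like Fam3b by 1.97. Etfbkmt, a mitochondrial methyltransferase gene, rose by 2.01. Rnu7, which encodes the small RNA used in histone mRNA processing, rose by 2.02, from 5.86 to 6.54 on the pachytene arrays to 8.31 and 8.12. Among the 30 named genes with the largest rises, the highest adjusted p in limma was 0.00259, for Cst13. All 30 kept their call without either spermatid array. A further 342 genes with clone, predicted or receptor names passed as higher without overlap and are not named here.

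The largest falls began from high levels. Zfp389, a zinc finger gene, read 12.31, 12.53, 12.17 and 12.18 on the pachytene arrays and 8.23 and 7.88 in spermatids, a difference of -4.24 (SE 0.11, 18.9-fold, adjusted p 8.68e-06 in limma). Sap30, a member of the Sin3 deacetylase complex, fell by 3.06. Wdfy3, a large autophagy adaptor, fell by 2.98. Zup1, a ubiquitin protease, fell by 2.51, and Mgll, the lipase that degrades monoacylglycerols, by 2.46. Fbxo43, an inhibitor of the anaphase-promoting complex needed in meiosis, fell by 2.38, and Cks2, a partner of cyclin-dependent kinases, by 2.26. Mark2, a polarity kinase, read 11.07 to 11.40 on the pachytene arrays and 8.95 and 8.87 in spermatids. Rnf144b, a RING ubiquitin ligase, fell by 2.23, and the kinetochore gene Cenpo by 2.26. All 30 of the largest falls kept their call without either spermatid array.

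Some large falls are markers of Leydig cells, the steroid-producing cells outside the tubules. Cyp17a1, an enzyme of androgen synthesis, read 11.63, 11.76, 11.26 and 11.92 on the pachytene arrays and 8.70 and 9.30 in spermatids, and Hsd3b6, another steroid enzyme, fell by 3.12. Cyp11a1, which makes pregnenolone from cholesterol, fell by 1.74. These falls stand beside the drop in the Leydig marker sum given above, and their origin was not tested. Lypd10 and Lypd11, which fell by 2.57 and 2.45, are near-identical neighbours whose probes may not tell them apart.

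Some genes had a difference close to 0, and for 998 (5.57%) the 95% interval lay within -0.3 and 0.3. The 10 of highest level were Baiap2l1, Rn7sk, Pabpc1, Ldhc, Ybx3, Ldha, BC051142, Dkkl1, Ube2d3 and Rnf126. Pabpc1 encodes the poly(A)-binding protein, Ldhc the testis lactate dehydrogenase, Ybx3 a protein that stores messenger RNA in germ cells, and Dkkl1 an acrosomal protein. Ldhc read 13.36 to 13.48 on the pachytene arrays and 13.43 and 13.34 in spermatids, with an interval of -0.28 to 0.20. These genes lie close to the highest value of the arrays, 13.65 to 13.77 per array, and whether the upper end of the scale limited differences was not tested.

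**Figure D2:**
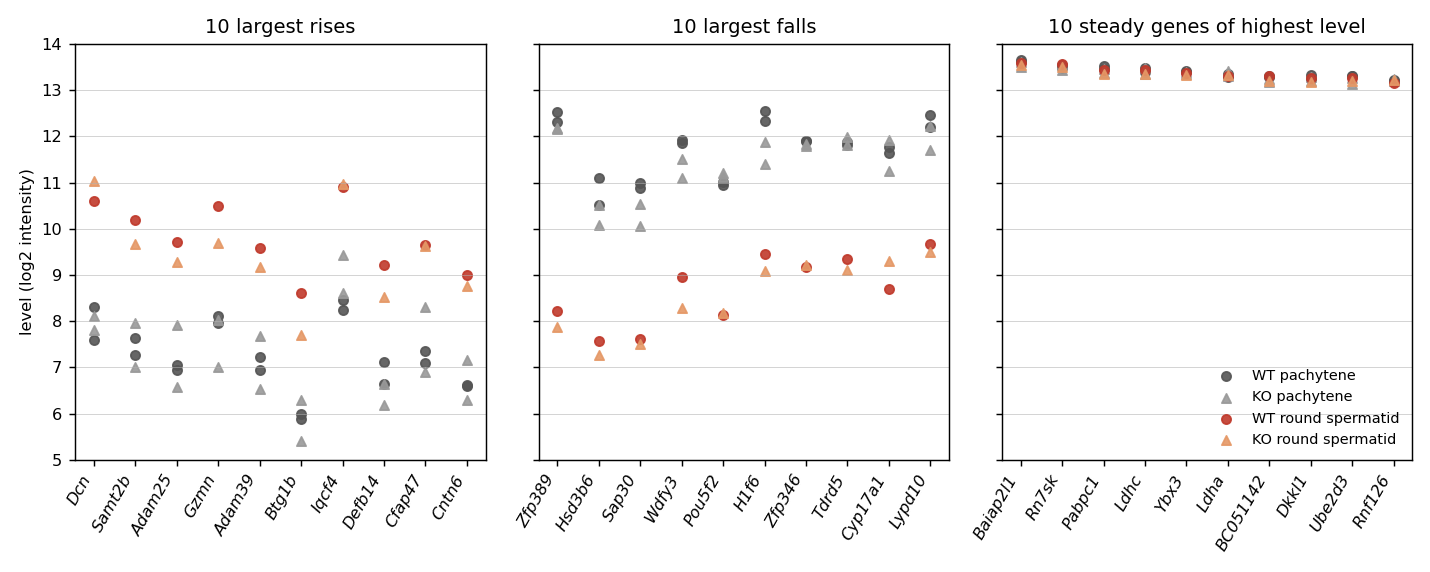
Log2 intensity on each array for the 10 named genes with the largest rises (left), the 10 with the largest falls (middle) and the 10 steady genes of highest level (right). Grey symbols are pachytene and red or orange symbols round spermatid arrays, circles are WT and triangles KO. Genes of the left and middle panels were chosen for groups that do not overlap, as in Dcn (10.60 and 11.03 against 7.59 to 8.30), and those of the right panel for a difference near 0.

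The X chromosome had the largest share of rises among chromosomes with more than 100 tested genes. Of 624 X-linked genes, 251 (40.2%; 214 and 139) were higher and 14 (2.24%; 3 and 3) lower, against 17.0% and 17.6% on the autosomes. No X-linked gene fell 2-fold. The share of rises on single autosomes ran from 13.6% on chromosome 11 to 20.7% on chromosome 16, and that of falls from 14.6% on chromosome 7 to a highest share on chromosome 9, where 203 of 1017 genes fell. The X-linked shares lay outside these ranges in both directions. The median pachytene level was 7.19 for X-linked genes and 8.42 for autosomal genes. Whether this lower level limited the X-linked falls was not tested.

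Among the largest X-linked rises, Rpgr, a ciliary gatekeeper, rose by 1.96. Ap1s2, an adaptor of vesicle coats, rose by 1.95, and Psmd10, a proteasome assembly factor, by 1.94. Stag2, a cohesin subunit of dividing cells, read 6.81, 6.74, 7.66 and 6.53 on the pachytene arrays and 8.93 and 8.95 in spermatids. Spaca5, a lysozyme-like acrosomal protein, read 7.50 to 8.59 against 10.11 and 10.27. Rnf138rt1 rose by 1.97 with the smallest error of this group, 0.11. Of the genes that fell, the export factor Nxf3 fell by 0.96 and lost its call without the WT spermatid array. The proteolipid gene Gpm6b read 8.21 to 8.33 on the pachytene arrays and 7.34 and 7.45 in spermatids and kept its call in both.

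Of 9 tested Y-linked genes, 7 rose (6 and 6). Uba1y, a ubiquitin-activating enzyme, read 8.42 to 8.98 on the pachytene arrays and 10.26 and 10.11 in spermatids. Zfy2 rose by 1.26 and lost its call without either spermatid array. Srsy read 10.76 and 10.50 on the WT pachytene arrays, 8.74 and 8.03 on the KO pachytene arrays, and 11.87 and 9.82 on the WT and KO spermatid arrays, so the cell type groups overlap although it rose in each genotype. The testis-determining gene Sry and the demethylase gene Kdm5d had differences of -0.08 and 0.04. Another 11 of the 20 listed Y-linked genes had no single-gene cluster, multicopy genes among them.

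Among autosomal genes copied from X-linked parents, which often serve meiosis while the X is silent, 3 of 12 rose (2 and 1) and 3 fell (2 and 1). G6pd2 rose by 1.61 and the transketolase-like Tktl2 fell by 1.04. The X-linked parents had 5 of 11 higher (45.5%; 5 and 2) and none lower in the limma fit. This was near the 40.2% higher and 2.24% lower of all X-linked genes. The median difference was 0.59 for the parents, -0.06 for the copies and 0.20 for all X-linked genes. Cstf2, an mRNA cleavage factor on X, rose by 1.63, while its autosomal copy Cstf2t fell by 0.67 and lost that call without either spermatid array. Tktl1, the X-linked relative of Tktl2, rose by 1.56. Pgk1, the X-linked glycolytic kinase, read 7.37 to 7.92 on the pachytene arrays and 8.57 and 7.97 in spermatids and did not pass (adjusted p 0.0588 in limma), although it passed without the KO spermatid array, where Prps1, called in the full fit, did not, while its copy Pgk2 rose by 0.66.

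In X-linked testis families, 28 of 51 tested names rose (54.9%; 25 and 15) and 4 fell (7.84%; 2 and 1). Of all X-linked genes 40.2% rose and 2.24% fell. The name pattern also took autosomal genes such as Slx4ip and Cypt12. Tex13a rose by 1.90, Cypt2, a cysteine-rich nuclear protein of spermatids, by 1.80, Samt4 by 1.81 and the export factor Nxf2 by 1.77. Copies in the Samt, Cypt and Ssxb families may share probes.

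**Figure D3:**
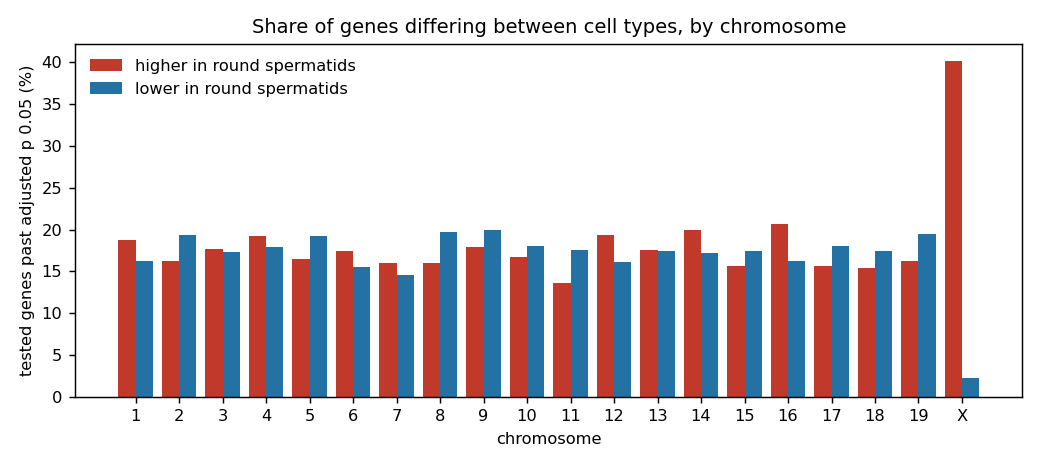
Share of the tested genes of each chromosome, in percent, that passed an adjusted p of 0.05 as higher (red) or lower (blue) in round spermatids. The X chromosome stands at 40.2% higher and 2.24% lower, outside the range of the autosomes (13.6% to 20.7% higher, 14.6% or more lower). The Y chromosome, with 9 genes, is not drawn.

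Most genes listed for the acrosome and the sperm surface rose in round spermatids. Of 50 tested, 32 rose (25 and 24) and 2 fell (2 and 2), with a median difference of 1.03. Izumo3, of the family that includes the sperm partner in egg fusion, read 8.95, 8.77, 9.74 and 8.63 on the pachytene arrays and 10.95 and 10.83 in spermatids. Adam1a rose by 1.85, the zonadhesin gene Zan by 1.55, and the complement regulator Cd46, which sits on the inner acrosomal membrane in mice, by 1.67. Spam1, a sperm hyaluronidase, rose by 1.39 but lost its call without either spermatid array. Acr, the acrosomal protease acrosin, was high throughout, with 12.67 to 12.92 on the pachytene and 12.92 and 12.94 on the spermatid arrays. Gopc, a Golgi protein required to form the acrosome, read 9.87 to 10.02 on the pachytene arrays and 8.38 and 8.30 in spermatids. Tex101, a surface protein, fell by 0.86.

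The Adam, Tex, Spata and Spag genes rose more often than all genes. In the Adam family of membrane metalloproteases, 15 of 32 rose (15 and 13) and 2 fell (0 and 0), and 13 of the rises were at least 2-fold, the other two being Adam15 at 0.99 and Adam22 at 0.63. Adam25, Adam39, Adam26a, Adam34 and Adam4 rose by more than 4-fold. Adam26a and Adam26b, and Adam6a and Adam6b, are close copies and may share probes. Of the Tex genes, named for testis expression, 24 of 37 rose (24 and 17) and 4 fell (3 and 2), with Tex24 at 1.97, Tex36 at 1.87 and Tex43 at 1.70. Among Spata and Spag genes 20 of 41 rose (12 and 11) and 3 fell (1 and 1). Spata45 rose by 1.92, while Spata22, which acts in meiotic recombination, read 10.18 to 10.88 on the pachytene arrays and 8.68 and 8.46 in spermatids. Testis serine proteases were mixed: 10 of 37 rose (8 and 8) and 5 fell (2 and 2). Prss52 rose by 1.37 and Prss43 fell from 10.53 to 10.58 on the pachytene arrays to 9.49 and 9.66.

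Parts of the flagellum differed by structure. Of 54 genes of the fibrous sheath, outer dense fibres and midpiece, 30 rose (22 and 20) and 1, the centriolar Cntln, fell (1 and 0). Akap14, an anchor for protein kinase A, read 8.65, 8.67, 9.74 and 9.22 on the pachytene arrays and 10.77 and 11.23 in spermatids. The testis serine kinases Tssk5, Tssk6, Tssk3, Tssk1, Tssk4 and Tssk2 rose by 1.74, 1.48, 1.30, 1.20, 1.1 and 1.09. Akap4, the main fibrous sheath protein, rose by 0.84, and Odf1, of the outer dense fibres, by 0.40, a call lost without either spermatid array. Odf1 was at 12.72 or more already on the pachytene arrays.

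Axonemal genes were divided. Of 88 Cfap, radial spoke, tektin and other ciliary genes, 30 rose (34.1%; 18 and 19) and 15 fell (17.0%; 7 and 4). That share of falls was at the 17.1% of all genes. Iqcf4 and Cfap47 rose by 2.24 and 2.22, Cfap58 by 1.26, and Tekt2, a filament protein of the doublet microtubules, from 11.92 to 12.08 to 12.72 on both spermatid arrays. Ift80 and Cfap46 fell by 1.59 and 1.1. Of 35 dynein and dynein assembly genes, 4 rose (2 and 2) and 13 fell (10 and 11). The 3 larger rises were light chains that also serve cytoplasmic dynein, Dynlt3, Dynlrb1 and Dynll2. The falls held the axonemal heavy chains Dnah2 (-1.08), Dnah14 (-1.05), Dnah7c (-1.05), Dnah7a (-0.99), Dnah12 (-0.83), Dnah8 (-0.80), Dnah1 (-0.73), Dnah7b (-0.70) and Dnah17 (-0.66), with the assembly factors Dnaaf4 (-1.72), Dnaaf6 (-1.48) and Zmynd10 (-0.60) and the light chain Dnal1 (-1.26). Dnaaf4 read 11.45 to 12.07 on the pachytene arrays and 9.95 and 9.96 in spermatids. The Dnah7 copies may share probes. Kinesins had 14 of 38 higher (8 and 4) and 8 lower (7 and 6), led by Kif17, which shuttles a transcription coactivator in spermatids, at 1.53.

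Ion channels and signalling genes of sperm had 15 of 38 higher (13 and 10) and 5 lower (2 and 2). Catsper1, Catsper3 and Catsper4, pore subunits of the sperm calcium channel, rose by 1.56, 1.85 and 1.36, and Efcab9, its calcium sensor, by 1.34. Catsper2, another pore subunit, did not pass (0.06), and the auxiliary Catsperb fell by 0.49, a call lost without either spermatid array. Kcnu1, the sperm potassium channel, read 11.14 to 11.82 on the pachytene arrays and 12.67 and 12.66 in spermatids, and Plcz1, the egg-activating phospholipase, rose by 1.37. Pkd2l1, a cation channel gene, fell by 1.5.

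Energy genes included rises and falls, and the falls in oxidative phosphorylation (17.0%) and the rises of somatic isoforms (17.4%) were at the background share. Of 26 testis isoforms 8 rose (6 and 4) and 5 fell (4 and 1), and of 23 somatic counterparts 4 rose (3 and 2) and 2 fell (0 and 0). Aldoart1 and Aldoart2, aldolase copies of testis, rose by 1.58 and 1.35, and the somatic Aldoa by 0.78. Gapdhs, the sperm glyceraldehyde phosphate dehydrogenase, read 11.97 to 12.52 on the pachytene arrays and 12.96 and 12.84 in spermatids. Slc25a31, the testis ADP/ATP carrier, and Cyct, the testis cytochrome c, fell by 0.80 and 0.85. Of 88 genes of oxidative phosphorylation 7 rose (1 and 2) and 15 fell (5 and 3), and of 74 mitochondrial ribosomal proteins 6 rose (1 and 1) and 21 fell (7 and 6). Mrpl45 fell from 9.69 to 10.04 on the pachytene arrays to 8.53 and 8.30.

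Chromatin genes of nuclear condensation moved in both directions. Of 48 tested, 14 rose (13 and 12) and 16 fell (11 and 8). Tnp1, the first transition protein, read 11.11, 10.74, 11.36 and 10.71 on the pachytene arrays and 12.36 and 12.13 in spermatids. Nutm1, a cofactor of histone hyperacetylation, rose by 1.78, the remodeller Chd5 by 1.39, the chromodomain genes Cdyl2 and Cdyl by 1.53 and 1.37, the linker histone H1f7 by 1.16 and the histone variant H2al2a by 1.12. H1f6, the testis linker histone of spermatocytes, read 12.56, 12.34, 11.88 and 11.40 on the pachytene arrays and 9.46 and 9.08 in spermatids. H2bc1, the testis H2B, fell by 1.13, the deacetylase Sirt1 by 1.44 and the damage-response histone H2ax by 0.87. Prm1 and Prm2, the protamines, did not pass, with differences of 0.22 and 0.23, both near the top of the scale.

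Histone lysine methyltransferases and demethylases had 9 of 62 higher (5 and 4) and 17 lower (9 and 8). The methyltransferases Kmt2d, Kmt2e, Kmt2b and Setd2 fell by 1.77, 1.20, 1.19 and 1.08, and Mllt10, a cofactor of the Dot1l enzyme, by 1.81. Kmt2d read 9.98 to 10.30 on the pachytene arrays and 8.24 and 8.41 in spermatids. The X-linked demethylases Kdm5c and Kdm6a rose by 1.12 and 1.01, and Suv39h2, a testis-enriched heterochromatin methyltransferase, by 1.52.

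Transcription regulators of spermatids had 25 of 45 higher (18 and 15) and 5 lower (3 and 3), a list that also holds the linker histone Hils1 and the kinesin Kif17. Rfx3, a ciliary gene activator, read 9.17, 9.05, 9.37 and 8.84 on the pachytene arrays and 10.96 and 10.53 in spermatids. Taf7l, a testis subunit of the general factor TFIID, rose by 1.56, Rfx1 by 1.44, the ciliary factor Foxj1 by 1.30, the heat shock factor Hsf2 by 1.21, and Sox5 and Sox6 by 0.83 and 0.66. Sox6 lost its call without the WT spermatid array. Rfx2, Sox30 and Crem, known as master regulators of spermiogenesis, were high in both cell types and did not pass, with differences of -0.06, 0.24 and 0.21. Pou5f2, a POU factor of spermatocytes, read 10.95 to 11.20 on the pachytene arrays and 8.13 and 8.18 in spermatids. Mybl1, a regulator of pachytene genes, fell by 0.87, and the nuclear receptor Nr2c2 by 1.08. Zfp genes, a large zinc finger family, had 44 of 320 higher (32 and 24) and 96 lower (43 and 36). Zfp87 and Zfp819 rose by 2.03 and 1.87, and Zfp389, Zfp346 and Zfp382 fell by 4.24, 2.66 and 1.79.

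Promoters of the called genes were set beside one another with RefSeq sequences of the GRCm38.p6 assembly, from 250 bases before to 50 bases after each start. Of the tested genes, 11553 have exactly 1 promoter in that table, which holds 32851 in all. Promoters of genes that rose 2-fold had a median of 7 CpG dinucleotides and those of genes that fell 2-fold 21, against 17 for all 11553, and 57.4% of the former but 13.7% of the latter had 10 or fewer. Matches were searched on both strands for 8 motifs: ACAATGG, the core bound by SOX factors, TGACGTCA, the cyclic AMP response element (CRE), TGAGGTCA, a variant of it, GTTGCCA, a core of RFX sites, GNCAGTT, a MYB core, CTTCCGG, an ETS core, GGGCGG, the GC box of SP and KLF factors, and TATAAA. The CRE, ETS and GC box letters contain CpG, and no motif holds another. These shares were compared without a test, and a match is not a bound site.

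The SOX core was in 7.44% of promoters of genes that rose 2-fold, 2.01% of those not called and 0.606% of those that fell 2-fold, and in 2.54% of all 11553 promoters compared, which is the base of the shares in brackets below. Among promoters with 10 or fewer CpG the first share was 10.7%, against 4.43% of all such promoters, and with more CpG 3.10% against 1.54%. The RFX core was in 6.60% of promoters of 2-fold risers and 3.23% of 2-fold fallers (4.11%), and the CRE variant in 4.32% and 1.21% (1.72%). In promoters with more than 10 CpG the CRE variant was in 1.41% of both classes. For the CRE itself the shares were 2.76% and 4.04% (2.68%), and with more than 10 CpG they were 5.07% and 4.45%, the opposite order. The ETS core ran the other way, with 7.56% and 21.2% (13.9%). Among promoters with more than 10 CpG the ETS shares were 13.8% and 22.5%. GC boxes were in 38.8% and 61.6% of the promoters (54.4%), and within promoters of more than 10 CpG in 74.9% and 67.9%. MYB cores were in 14.2% and 12.9% (11.9%), and TATAAA in 9.36% and 6.06% (10.1%). Over all 32851 promoters of the table, tested or not, the shares were 3.66% for the SOX core, 4.38% for the RFX core, 2.17% for the CRE variant, 1.79% for the CRE, 8.86% for the ETS core, 35.7% for the GC box, 12.8% for the MYB core and 13.6% for TATAAA.

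**Figure D4:**
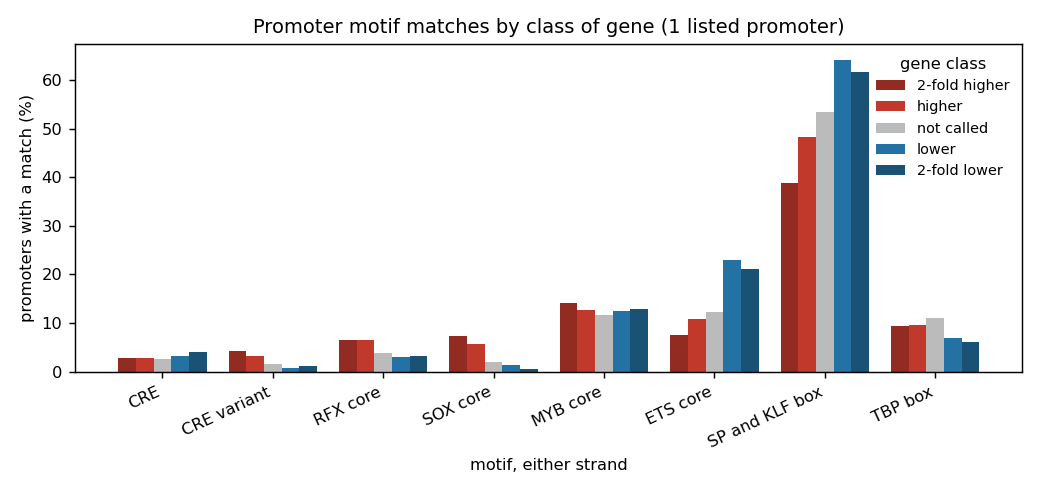
Percent of promoters with a match to each motif on either strand, for genes that rose 2-fold or passed as higher (reds), genes not called (grey) and genes that passed as lower or fell 2-fold (blues), over genes with 1 listed promoter. The SP and KLF box is the GC box and the TBP box is TATAAA in the text. The SOX core falls from 7.44% in 2-fold risers to 0.606% in 2-fold fallers, while the ETS core goes from 7.56% to 21.2%.

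The windows below show such matches in genes with the largest differences, with the match in capitals, 80 bases long and read 5′ to 3′ along the gene. Of the 30 largest rises 18 have a listed promoter, and before the start 1 of them, Pdzk1, holds the SOX core and 1, Mroh9, the RFX core. Of the 30 largest falls 23 have one, and Mark2 and Tmem106c hold the ETS core. That core was in 21.2% of promoters of 2-fold fallers and 13.9% of all, so these few matches are examples and show no excess. MYB cores, not shown, lie before the start of falling genes such as Hsd3b6, Lypd10, Mgll and Mark2. Pdzk1 lies at chr3:96829881-96829960 on the plus strand, Mroh9 at chr1:163085671-163085750 on the minus strand, Mark2 at chr19:7295464-7295543 on the minus strand and Tmem106c at chr15:97964012-97964091 on the plus strand.
Pdzk1: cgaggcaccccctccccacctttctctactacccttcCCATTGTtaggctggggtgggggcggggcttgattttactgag
Mroh9: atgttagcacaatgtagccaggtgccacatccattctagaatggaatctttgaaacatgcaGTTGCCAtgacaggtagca
Mark2: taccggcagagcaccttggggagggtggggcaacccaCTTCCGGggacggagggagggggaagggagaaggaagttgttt
Tmem106c: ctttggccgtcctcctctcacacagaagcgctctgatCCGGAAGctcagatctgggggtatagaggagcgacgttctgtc
Counted from the start, the match begins at -147 in Pdzk1, where the SOX core is on the opposite strand, at -19 in Mroh9, at -59 in Mark2 and at -180 in Tmem106c, where the ETS core is on the opposite strand. Pdzk1 read 7.90 to 8.78 on the pachytene arrays and 10.41 and 10.07 in spermatids, and Mroh9 8.90 to 9.66 against 11.36 and 11.17. Tmem106c read 10.59 to 10.90 against 8.36 and 8.43. Pdzk1 and Mark2 have 2 listed promoters each, of which 1 is shown.

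Genes of meiosis fell more often than they rose. Of 18 synaptonemal complex and HORMA genes, 2 rose (1 and 1) and 9 fell (5 and 5). Sycp3, an axial element protein, read 12.04, 12.29, 12.32 and 11.91 on the pachytene arrays and 11.02 and 10.98 in spermatids. Sycp2 fell by 1.19 and the telomere tether Majin by 1.24, while the central element gene Syce2 rose by 0.87. Of 68 recombination genes 16 rose (8 and 3) and 30 fell (21 and 21). Cdk2 fell by 2.06, the crossover regulator Ccnb1ip1 by 1.90, and Mlh3, of the crossover nuclease, from 10.65 to 10.85 on the pachytene arrays to 8.99 and 9.03. Tex15 rose by 1.53, the checkpoint kinase Chek1 by 1.33, the X-linked Tex11 by 1.30 and the strand exchange gene Dmc1 by 0.91.

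Cohesin and chromosome axis genes had 5 of 32 higher (4 and 3) and 11 lower (3 and 3). Next to Stag2, the meiotic cohesin Rec8 rose by 1.67, from 9.09 to 9.47 on the pachytene arrays to 10.96 and 10.95, and the ring subunit Smc3 by 1.35. The meiotic subunits Smc1b and Stag3 did not pass, with differences of 0.14 and -0.17. Ncapd3, of condensin II, fell by 1.41 and the cohesin protector Sgo2a by 1.15. Of 55 genes of the meiotic divisions 8 rose (4 and 5) and 23 fell (17 and 14). The checkpoint gene Mad2l1 read 10.61 to 11.22 on the pachytene arrays and 9.20 and 9.43 in spermatids, and Cdk1, the kinase of division, fell by 0.83. Cdc25c, which activates it, rose by 1.65, and the X-linked Ccnb3 and Cenpi by 1.53 and 1.84. Cenpi read 8.91 in WT and 7.35 in KO spermatids. DNA replication genes had 7 of 44 higher (3 and 3) and 10 lower (7 and 7), with the origin recognition genes Orc3, Orc2 and Orc5 falling by 1.49, 1.38 and 1.07 and Orc1 rising by 1.09.

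Most members of the piRNA pathway, which silences transposons and processes transcripts in the germ granule, fell. Of 31 tested genes 18 fell (14 and 13) and 4 rose (3 and 3), with a median of -0.62. Tdrd5, a Tudor protein of the chromatoid body, read 11.81, 11.87, 11.98 and 11.82 on the pachytene arrays and 9.34 and 9.10 in spermatids. Tdrd1 fell by 2.31, the Piwi proteins Piwil1 and Piwil2 by 2.03 and 1.59, and the nuclease gene Pld6 by 1.54. Gtsf1l and Gtsf2, relatives of a Piwi cofactor, rose by 1.60 and 1.39, and Gtsf1l read 9.38 to 9.82 against 11.21 and 11.17.

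Of 61 splicing genes tested, 33 (54.1%) fell (24 and 22), 1, U2af1l4, rose (0 and 0) and 27 did not pass, with a median of -0.52 and quartiles of -0.96 and -0.22. Lsm3, of the ring on the U6 small RNA, read 11.49, 11.56, 11.50 and 11.34 on the pachytene arrays and 9.66 and 9.86 in spermatids. Srsf10 fell by 1.34, Snrpb, a core protein of the small nuclear particles, by 1.16, U2af1, which reads the 3′ splice site, by 1.14, Srsf1 by 1.08 and Prpf8, at the heart of the spliceosome, by 1.07. Small nucleolar and Cajal body RNAs had 5 of 45 lower (3 and 1) and none higher.

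Messenger RNA storage and translation genes rose about as often as all genes. Of 51 tested, 9 (17.6%) rose (7 and 6) and 13 (25.5%) fell (8 and 7). Paip1, which binds the poly(A)-binding protein and favours translation, read 11.18, 12.05, 11.43 and 11.45 on the pachytene arrays and 9.13 and 8.85 in spermatids. Paip2b and Paip2, inhibitors of the same protein, rose by 1.13 and 0.60, the latter call being lost without either spermatid array. Cpeb3, a regulator of poly(A) tails, rose by 1.43 and the X-linked Fmr1 by 1.28. Initiation and elongation factors had 8 of 61 higher (5 and 3) and 12 lower (5 and 5), with the exchange factor subunit Eif2b1 at 10.73 to 10.79 on the pachytene arrays and 8.92 and 8.87 in spermatids. Cytosolic ribosomal proteins had 2 of 53 higher (0 and 0) and 6 lower (1 and 1), with a median difference of 0. Some of these clusters are numbered among those of another chromosome. The cluster of Rpl10a, a chromosome 17 gene, is numbered beside that of Akr1cl on chromosome 1. That of the X-linked Rpl10 is numbered near that of Nutm1 on chromosome 2. Whether each ribosomal cluster measures the named gene or a similar sequence elsewhere was not tested.

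Vesicle transport genes fell more often than they rose. Of 79 Golgi, COPI and COPII genes 23 fell (15 and 14) and 10 rose (6 and 2). The TRAPP tethering genes Trappc1, Trappc11, Trappc3, Trappc4 and Trappc6b fell by 1.18, 1.11, 1.1, 1.06 and 0.98, and the coat gene Copa by 0.93. Golga7 fell by 1.1 and its relative Golga7b rose by 1.64, from 8.88 to 9.14 on the pachytene arrays to 10.76 and 10.50. Among Rab GTPases, which mark membrane compartments, 18 of 69 fell (7 and 5) and 4 rose (1 and 1), the largest rise being Rab3il1, an exchange factor taken by the name pattern. Rab23 fell by 1.17.

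Protein turnover genes differed gene by gene. Falls in the ubiquitin, RING finger, proteasome and heat shock lists were near the 17.1% of all genes. Ubiquitin proteases had 13 of 54 higher (24.1%; 10 and 9) and 9 lower (16.7%; 6 and 6). The X-linked Usp9x, Usp51, Usp26 and Usp11 rose by 1.55, 1.42, 1.28 and 1.1, and Usp10 fell by 1.79. Ubiquitin-conjugating enzymes had 4 of 35 higher (11.4%; 3 and 3) and 5 lower (14.3%; 2 and 1). Ube2a, an X-linked enzyme of the RAD6 family, read 8.23, 8.20, 8.00 and 7.48 on the pachytene arrays and 9.99 and 9.30 in spermatids. RING finger genes had 21 of 80 higher (10 and 8) and 16 lower (8 and 6), with Rnf133 and Rnf148 at 1.54 and 1.51 and Rnf6 at -1.94. Proteasome genes had 3 of 50 higher (2 and 1) and 9 lower (4 and 5). Psma8, the subunit of the spermatogenic proteasome, fell by 1.96. Dnaj and heat shock genes had 16 of 70 higher (22.9%; 7 and 6) and 11 lower (15.7%; 4 and 3), led by the cochaperone Dnaja4 at 1.5. Mitochondrial carriers had 12 of 46 in each direction (8 and 6 higher, 7 and 5 lower).

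Receptor and matrix genes gave fewer calls than the background, which was not adjusted for level. In the set of genes of lowest level, 11.1% were called in either direction. Whether level accounts for the few calls of these lists was not tested. Olfactory and vomeronasal receptors had 32 of 389 higher (26 and 10) and 11 lower (4 and 1), and keratin, collagen and other matrix genes 7 of 139 higher (4 and 4) and 2 lower (1 and 1). Markers of spermatogonia, the cells before meiosis, were near the background for rises, with 5 of 27 higher (2 and 0) and 2 lower (2 and 2), the latter being Id4 at -1.94 and Tex101.

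**Figure D5:**
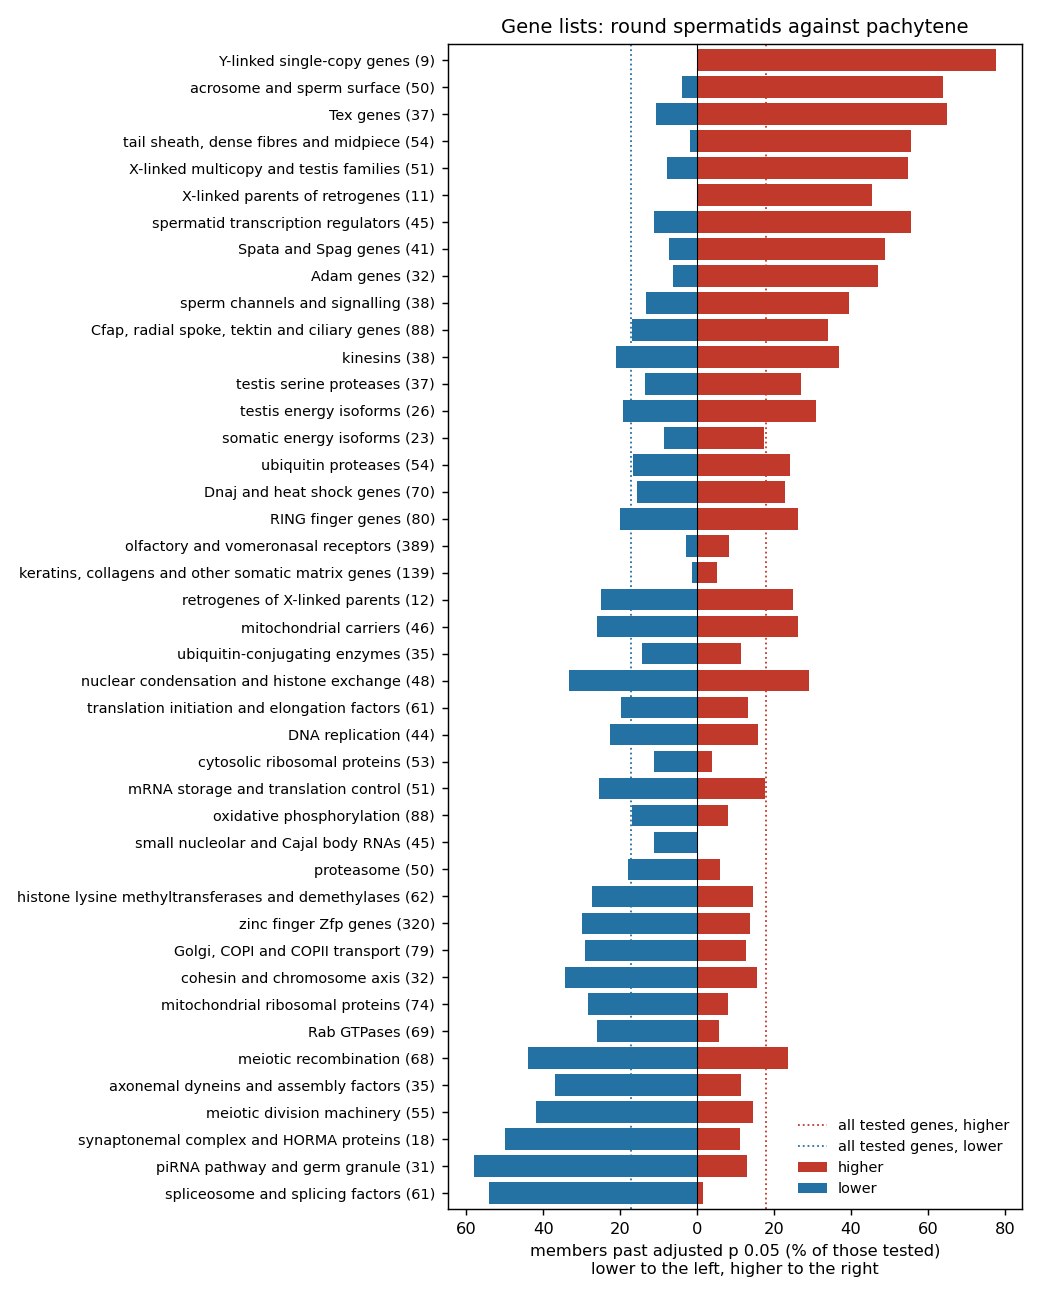
Percent of the tested members of each gene list, with their number in brackets, that passed an adjusted p of 0.05 as higher (red, to the right) or lower (blue, to the left) in round spermatids. Dotted lines mark the 17.8% higher and 17.1% lower of all tested genes, not adjusted for level. Acrosome genes reach 64.0% higher, splicing genes 54.1% lower, and receptors and matrix genes stay below both lines.

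MicroRNA genes were read after the other results were known. Of 141 tested, 13 (9.22%; 8 and 2) were lower and 3 (2.13%; 0 and 0) higher, both below the shares of all genes, and 0 of 10 on X passed in limma. Whether such a cluster measures the mature microRNA, its hairpin or its primary transcript was not tested. Mature sequences are given for a family abundant in meiotic cells, in which miR-34b-5p, miR-449c-5p and miR-449a-5p share their seed, bases 2 to 8, shown in capitals, from RefSeq.
miR-34b-5p: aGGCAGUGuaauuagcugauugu
miR-449c-5p: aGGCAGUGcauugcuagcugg
miR-449a-5p: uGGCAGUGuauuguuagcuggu
Mir34b fell by 0.47 and Mir449c by 0.51, and both lost their call without either spermatid array. Mir449c read 7.36 to 7.51 on the pachytene arrays and 6.88 and 6.95 in spermatids. Mir449a had a difference of -0.28 and did not pass (adjusted p 0.29 in limma). The largest fall of a microRNA gene with a listed 5p sequence was that of Mir425, from 8.20 to 8.38 to 7.09 and 7.35, a difference of -1.09.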

How the data were processed

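RNA of 6 samples was labelled and hybridised to single-colour arrays. The authors deposited linear RMA intensity per transcript cluster, made with Affymetrix Expression Console 1.1, per the submitters' processing notes; the sources used here name neither its options nor a genome build. Here log2 was taken. Of 35556 clusters, 21789 had 1 gene symbol in the platform annotation, 1621 had several and 12146 were not listed. By gene identifier 21698 of the former matched RefSeq (GRCm38.p6), which gave chromosomes. Whether the probes of each cluster lie on the chromosome of the named gene was not tested. Of 999 genes with several clusters the brightest was used. Differences came from limma 3.58.1 in R 4.3.3 (lmFit, eBayes, additive genotype and cell type, 3 residual degrees of freedom) with Benjamini-Hochberg adjustment at 0.05, and the interaction from a fit with 4 groups. Depth has no counterpart on arrays, and their number limits the precision. The scripts were tested on simulated data.

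Named genes are the 30 largest called, non-overlapping differences per direction without clone or receptor names, up to 4 members per list and direction with defining members, the 10 largest X-linked ones per direction, Y-linked genes and 10 steady genes. Others, such as further list members, were named after their values were seen. Members and lists were chosen with earlier results of these data known. No protein sequences were used here.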

Additional observations from a re-analysis of the deposited data

How the results depend on the processing

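Leaving out each array in turn gave between 2785 and 8849 genes past adjusted p 0.05 in limma, with 1498 to 3803 higher and 1287 to 5046 lower, and 142 to 344 X-linked genes against 265 in the full fit. The 2-fold count moved least, from 1735 to 2219 around 2038. The WT difference taken from the fit with 4 groups is the same estimate as leaving out the KO spermatid array (3577 genes, 2063 higher and 1514 lower), and the KO difference the same as leaving out the WT one (2785, with 1498 higher, 1287 lower and 142 X-linked), so neither is a further alternative. Same-numbered pachytene arrays deviated in opposite directions across genes (correlation -0.23) and the labels do not say that numbers mark a shared preparation, so the numbers were not taken as pairs. A replicate block gave 5375 genes, and 1 gene whose cell type difference depended on genotype, where the fit without the block gave 0. The other filters, a second quantile normalization, median centring, another prior, the mean of a gene's clusters, the fit with 4 groups and the fit without genotype left every total within 1.5 times, and no named gene changed direction under any setting run. Of 381 named genes, 73 lost their call without the KO and 96 without the WT spermatid array, and 0 with median centring. The spermatid side rests on 1 array per genotype, so its spread was estimated largely from the pachytene arrays.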

Other observations

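Some large differences were on the same chromosome, a grouping noticed after the values were seen and not tested. Positions along the chromosome were not compared. Of the 30 largest falls 7 are on chromosome 13, which holds 3.58% of the tested genes: Zfp389, Pou5f2, H1f6, Zfp346, Paip1, Cks2 and Rnf144b. Of all 59 called falls of 4-fold or more, 8 are on chromosome 7 and 7 on chromosome 13. Over all tested genes of chromosome 13, 17.4% fell, near the 17.1% of all genes. Of the 30 largest rises 6 are on chromosome 8, which holds 5.09%: Adam25, Adam39, Adam26a, Adam34, Defb14 and Tex24, the first 4 from 1 protease family, and another 6 are on X.

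Clusters that name no single gene were fitted apart. Of 8097 tested clusters that the annotation does not list, 368 were higher and 712 lower in round spermatids at adjusted p 0.05 in limma. Of 1385 clusters with several symbols, 207 were higher and 54 lower.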
